A study of Mus musculus with 6 samples.

Results

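Matrix metalloproteinases (MMPs) and their tissue inhibitors (TIMPs) were followed across articular cartilage libraries of knockout (KO) and wildtype mice. The 10 genes were the rows of the expression table whose name was Mmp2, Mmp3, Mmp8, Mmp9, Mmp13, Mmp14, Mmp19, Timp1, Timp2 or Timp3. All 10 were present among 34709 genes, and all 10 were among the 15373 genes tested, those whose mean level reached 0.5 FPKM (fragments per kilobase, a length-corrected level relative to the library total). They were divided into 2 neutrophil-type enzymes (Mmp8 and Mmp9), 5 mesenchymal enzymes (Mmp2, Mmp3, Mmp13, Mmp14 and Mmp19) and 3 TIMPs. The study compared 3 KO libraries with 3 wildtype libraries of 18-month male mice, and littermates were used for this age group. No treatment is given and the line was C57BL/6J, and no promoter or Cre that would restrict the KO to cartilage is named in the methods. How many animals each library represents is not given in the sources used here, so the p-values measure only the spread between these samples.

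MMPs are zinc-dependent endopeptidases, secreted or membrane-bound, that are made as inactive proenzymes and cleave collagens, proteoglycans and other matrix proteins once the propeptide is removed. TIMPs bind the active site of the enzymes and block it. In cartilage, the collagenase MMP13 is known for cleaving type II collagen in osteoarthritis and in hypertrophic cartilage, and MMP3 for cleaving proteoglycans and activating other MMPs. MMP8 and MMP9 are stored in the granules of neutrophils, and MMP9 is also made by osteoclasts.

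Total counts ranged from 52268311 to 63331135 per library. KO replicates 2 and 3 were far more alike than any other pair. The median squared difference of their counts was 5.77 times that of Poisson sampling, against 23.7 to 85.4 times in the other 14 pairs, and they were averaged and counted as 1 sample. This left 2 KO samples against 3 wildtype samples. The tissue label was checked against marker genes. The summed level of 15 chondrocyte markers was 663 to 1475 FPKM over the 6 libraries. Of these 15, only 2 were at 0 in any library, Matn1 and Matn3, which encode cartilage matrilins. The 12 neutrophil markers summed to 27314 to 63152 FPKM and the 8 erythroid markers to 24750 to 108158 FPKM. Both sums were above the chondrocyte marker sum in each library. The 10 hypertrophic and osteoblast markers, at 1452 to 3353 FPKM, were also above it in each library. All 8 B cell markers and all 8 erythroid markers were lower in KO without overlap, against 13.7% of all tested genes. The B cell markers summed to 83.9 to 133 FPKM in KO and 269.8 to 299.8 FPKM in wildtype. Macrophage markers had a negative log2 difference (KO minus wildtype) in 6 of 8 cases and endothelial markers in 7 of 7. In such bulk samples, fewer cells of a type and less RNA per cell cannot be told apart.

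The members were at widely different levels. Mmp8 and Mmp9 were the most abundant, with means of 260.8 and 250.4 FPKM over the 6 libraries, and their order was not fixed, since Mmp8 was above Mmp9 in 4 of 6 libraries. Mmp9 was above Mmp13 in 6 of 6 libraries, and Mmp13, with a mean of 98.8 FPKM, was above Timp2 in 6 of 6. Timp2 and Timp3 had means of 31.7 and 28.3 FPKM, and Timp2 was the higher in 5 of 6 libraries. Timp3 was above Timp1 (mean 16.2 FPKM) in 6 of 6 libraries. Timp1 and Mmp2 changed places between libraries, as Timp1 was above Mmp2 (mean 13.4 FPKM) in 4 of 6. Mmp14, Mmp19 and Mmp3 followed in this order in 6 of 6 libraries, with means of 8.91, 3.52 and 1.22 FPKM.

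A gene was called when its Benjamini-Hochberg adjusted p-value, from the quasi-likelihood test of edgeR over all tested genes, was below 0.05. Of the 10 members 0 were called, as were 0% of the 15373 genes. At an unadjusted p-value under 0.05, 2 members were found, Mmp8 (higher in KO) and Mmp3 (lower in KO), against 13.7% of all tested genes. The FPKM values of the KO and wildtype libraries did not overlap for 4 members, against 25.0% of all tested genes. Mmp8 was higher in KO in this way (11.3% of tested genes), and Mmp3, Mmp13 and Mmp14 were lower (13.7%). The median log2 difference (KO minus wildtype) was -0.31 over the 10 members and -0.02 over all tested genes. Without wildtype replicate 1 it was -0.15 over the members, and without KO replicate 1 it was -0.50.

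**Figure D1:**
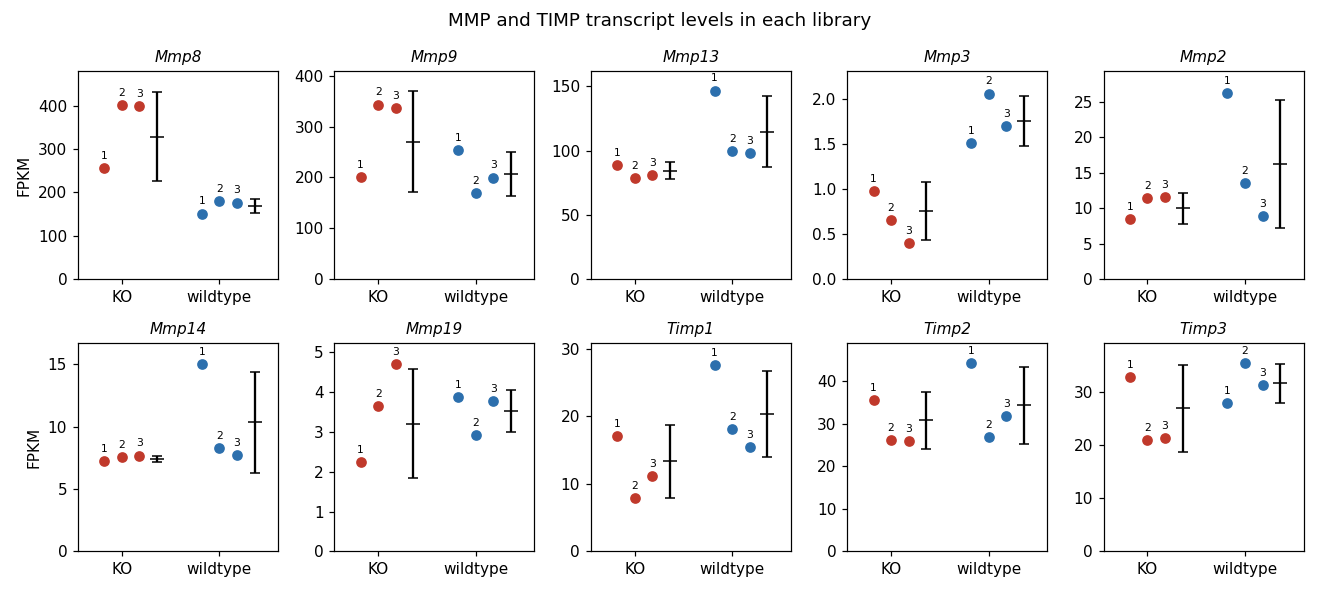
Level of each member in FPKM (vertical axes, each starting at 0) in the KO (red) and wildtype (blue) libraries, with replicate numbers beside the points. The black bars give the mean and SD of 2 KO samples (KO replicates 2 and 3 averaged) and 3 wildtype samples. The KO and wildtype points are separate for Mmp8, Mmp13, Mmp3 and Mmp14, and overlap for the other 6 genes.

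The neutrophil-type enzymes were examined first. Mmp8 (ENSMUSG00000005800, chromosome 9, 7558456 to 7568485, plus strand, GRCm38) encodes neutrophil collagenase. It was at 255.8, 401.8 and 399.8 FPKM in KO replicates 1, 2 and 3, and at 151.3, 179.5 and 176.6 FPKM in wildtype replicates 1, 2 and 3. Each KO library was above each wildtype library, and the library labelled KO replicate 1 lay between the other KO libraries and the wildtype libraries. The KO mean of 328.3 ± 102.5 FPKM (SD, n = 2) compared with a wildtype mean of 169.1 ± 15.5 FPKM (SD, n = 3). The log2 difference was 0.96 (SE 0.216), a 1.95-fold higher level in KO, with an adjusted p-value of 0.168 by edgeR. This member was called in 3 of the other fits. The adjusted p-value was 0.0369 by edgeR with the 6 libraries as labelled, where 3.71% of tested genes were called (2.46% higher and 1.25% lower in KO). DESeq2 on the 5 samples gave 0.000803, where 5.72% were called (3.44% higher and 2.28% lower in KO). When KO replicate 1 was left out, edgeR gave 0.0434, where 2.29% of tested genes were called (1.70% higher and 0.585% lower in KO), with a log2 difference of 1.21, in a fit that assumes the single KO sample to vary like the wildtype samples. Without KO replicates 2 and 3 the log2 difference was 0.67 with an adjusted p-value of 0.426, and its extremes over the alternatives were 0.000803 and 0.487.

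Mmp9 (ENSMUSG00000017737, chromosome 2, 164940780 to 164955850, plus strand) encodes gelatinase B, which degrades denatured collagen and type IV collagen. It was at 200.5, 343.3 and 337.1 FPKM in KO replicates 1, 2 and 3, and at 253.2, 168.6 and 199.8 FPKM in wildtype replicates 1, 2 and 3. The groups overlapped, because the library labelled KO replicate 1 lay within the wildtype range. Its log2 difference was 0.40 (SE 0.260, adjusted p-value 0.592 by edgeR). It was 0.04 without KO replicates 2 and 3, and 0.69 without KO replicate 1.

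Markers of neutrophils and osteoclasts were set beside both genes. Of the 12 neutrophil markers, 12 had a positive log2 difference. An unadjusted p-value under 0.05 was found for 8 of these markers, against 7.63% of all tested genes higher in KO. For 11 markers the groups did not overlap, against 11.3% of all tested genes with KO higher. The 12 markers summed to 51528 to 63152 FPKM in KO and 27314 to 44224 FPKM in wildtype, and 0 of them were at 0 in any library. Mmp8 amounted to 0.405%, 0.780% and 0.758% of this sum in KO replicates 1, 2 and 3, and to 0.554%, 0.406% and 0.566% in wildtype replicates 1, 2 and 3. Relative to this sum, the Mmp8 level overlapped between the groups. S100a8 and S100a9, which encode the subunits of calprotectin, held 65.8% to 70.2% of the sum in each library. Relative to the sum of the other 10 markers, an alternative chosen after seeing the data, Mmp8 amounted to 1.35% to 2.28% in KO libraries and 1.36% to 1.74% in wildtype libraries, and the groups overlapped as well. Taken marker by marker, the ratio of Mmp8 to the marker overlapped between the groups for 11 of 12 markers and was higher in KO for Retnlg. The markers did not share 1 order of the KO libraries. KO replicate 1 was the lowest KO library for 5 markers (Ltf, Mpo, Elane, Cxcr2 and Lcn2), as it was for Mmp8, the highest for 6, S100a8 and S100a9 among them, and lay between the others for 1.

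The 9 osteoclast markers, which include Acp5 and Ctsk (acid phosphatase and cathepsin K of resorbing osteoclasts), all had a negative log2 difference. Of these markers, 3 had an unadjusted p-value under 0.05, against 6.07% of all tested genes lower in KO. The 9 markers summed to 417 to 500.1 FPKM in KO and 566 to 1335 FPKM in wildtype. Wildtype replicate 1 had the highest osteoclast sum and the highest Mmp9 level among the wildtype libraries. Wildtype replicates 2 and 3 did not keep this order, with sums of 624 and 566 FPKM and Mmp9 at 168.6 and 199.8 FPKM. Mmp9 amounted to 48.1% to 68.6% of the osteoclast sum in KO libraries and 19.0% to 35.3% in wildtype libraries, without overlap. Of the neutrophil sum it amounted to 0.318% to 0.666% in KO libraries and 0.381% to 0.927% in wildtype libraries, with overlap. Mmp8 relative to Mmp9 was 1.17 to 1.28 in KO libraries and 0.598 to 1.06 in wildtype libraries, lowest in wildtype replicate 1. The part of either cell type in the levels of Mmp8 and Mmp9 was not tested.

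**Figure D2:**
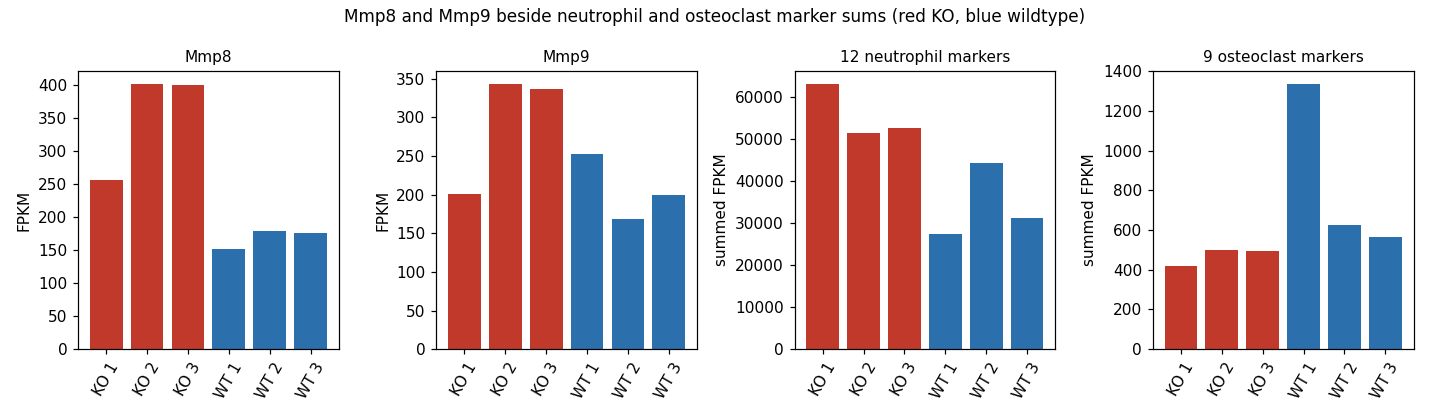
Levels of Mmp8 and Mmp9 in FPKM and summed FPKM of 12 neutrophil and 9 osteoclast markers, 1 bar per library (red KO, blue wildtype, abbreviated WT). KO replicates 2 and 3 have the highest Mmp8 and Mmp9 bars, KO replicate 1 has the highest neutrophil sum (63152 FPKM), and wildtype replicate 1 has the highest osteoclast sum (1335 FPKM).

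Mmp25, a further MMP known from neutrophils and anchored in their membrane, was named by rule among the MMP genes that are no members. It was at 13.4, 22.5 and 22.9 FPKM in KO replicates 1, 2 and 3, and at 8.66, 9.05 and 10.2 FPKM in wildtype replicates 1, 2 and 3. As for Mmp8, the groups did not overlap and KO replicate 1 was the lowest KO library. Its log2 difference was 0.96 (SE 0.199, adjusted p-value 0.166 by edgeR, and 0.0363 with the 6 libraries as labelled).

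Among the mesenchymal enzymes, Mmp13 and Mmp3 belong, like Mmp8, to a cluster of MMP genes on chromosome 9. In GENCODE M21 it holds 9 protein-coding MMP genes from 7272514 to 7699585 (GRCm38), of which 4 were tested (Mmp13, Mmp3, Mmp8 and Mmp27). Neighbours within the cluster were at very different levels. Mmp10 and Mmp20 were at 0 in 5 of 6 libraries, and Mmp12, the macrophage elastase, was between 0.0254 and 0.220 FPKM.

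To show how the starts of the 3 cluster members differ, the 250 bases before each RefSeq start (GRCm38.p6, plus strand) were searched. The motifs were the AP-1 motif TGAGTCA (both strands), the site bound by Fos and Jun proteins, and TATAAA (sense strand only). Capitals mark these motifs.
Mmp13, chr9:7272264-7272513: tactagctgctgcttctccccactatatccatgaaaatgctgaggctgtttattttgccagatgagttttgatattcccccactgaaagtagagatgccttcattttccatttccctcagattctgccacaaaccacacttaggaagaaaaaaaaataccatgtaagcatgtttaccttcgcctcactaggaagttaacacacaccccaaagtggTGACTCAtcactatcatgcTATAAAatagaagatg
Mmp3, chr9:7445572-7445821: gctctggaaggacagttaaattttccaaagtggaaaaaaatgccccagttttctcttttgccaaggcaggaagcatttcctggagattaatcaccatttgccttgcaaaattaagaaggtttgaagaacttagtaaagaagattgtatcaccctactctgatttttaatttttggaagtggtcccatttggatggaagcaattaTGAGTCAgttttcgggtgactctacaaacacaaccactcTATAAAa
Mmp8, chr9:7558179-7558428: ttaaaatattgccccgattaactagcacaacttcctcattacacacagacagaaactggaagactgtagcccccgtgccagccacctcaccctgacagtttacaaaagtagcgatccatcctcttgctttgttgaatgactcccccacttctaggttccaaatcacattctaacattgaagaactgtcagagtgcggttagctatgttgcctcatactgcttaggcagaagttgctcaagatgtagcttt
Mmp13 had an AP-1 match beginning 35 bases before the start, read as TGACTCA on the sense strand, and a TATAAA match at 16 bases. Mmp3 had an AP-1 match at 46 bases and a TATAAA match at 7 bases. In Mmp8 neither was found in this window. Of the 32851 promoters of the table, 4.46% held the AP-1 motif and 7.59% TATAAA in the same window. Promoters were matched for 7 of the 10 members, and in the other 4 (Mmp14, Timp1, Timp2 and Timp3) neither motif was found. A shorter motif bound by ETS proteins, AGGAAG on both strands, was held by 29.5% of promoters, with 2 matches in Mmp13 and 1 each in Mmp3 and Mmp8. Outside the cluster, this motif had 2 matches in Timp1, 1 each in Mmp14 and Timp3, and 0 in Timp2. Its matches did not overlap the motifs in capitals. These matches describe the sequence only.

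Mmp13 (ENSMUSG00000050578, chromosome 9, 7272514 to 7283331, plus strand) encodes collagenase 3. It was at 88.9, 78.8 and 80.9 FPKM in KO replicates 1, 2 and 3, and at 146.6, 99.5 and 98.0 FPKM in wildtype replicates 1, 2 and 3. All KO libraries were below all wildtype libraries, although KO replicate 1 and wildtype replicate 3 were close. The KO mean of 84.4 ± 6.41 FPKM (SD, n = 2) compared with a wildtype mean of 114.7 ± 27.7 FPKM (SD, n = 3). By edgeR the log2 difference was -0.41 (SE 0.207) with an adjusted p-value of 0.451. It was -0.23 when wildtype replicate 1, the highest library, was left out. Mmp13 made up 76.9% to 82.5% of the summed level of the 5 mesenchymal enzymes in KO libraries and 75.9% to 81.6% in wildtype libraries, so its share hardly varied. The 10 hypertrophic and osteoblast markers, cells that make Mmp13, all had a negative log2 difference. Of these markers, 0 had an unadjusted p-value under 0.05, against 6.07% of all tested genes lower in KO. They summed to 1452 to 1997 FPKM in KO and to 1599.8 to 3353 FPKM in wildtype, highest in wildtype replicate 1. Mmp13 amounted to 4.45% to 5.52% of this sum in KO libraries and 3.13% to 6.13% in wildtype libraries. The part of hypertrophic cells and osteoblasts in the Mmp13 level was not tested.

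Mmp3 (ENSMUSG00000043613, chromosome 9, 7445822 to 7455975, plus strand) encodes stromelysin 1 and was the least abundant member. It was at 0.982, 0.657 and 0.403 FPKM in KO replicates 1, 2 and 3, from 104, 84 and 52 counts. In wildtype replicates 1, 2 and 3 it was at 1.51, 2.06 and 1.70 FPKM, from 180, 224 and 195 counts. The groups did not overlap. With an SE of 0.390, its log2 difference of -1.18 was the most negative among the members, with an adjusted p-value of 0.258 by edgeR, and of 0.0725 to 0.570 in the alternatives. It moved to -0.76 without KO replicates 2 and 3 and to -1.75 without KO replicate 1.

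Mmp14 and Mmp2 were looked at together, because membrane-bound MT1-MMP, encoded by Mmp14, activates the proenzyme of gelatinase A, encoded by Mmp2. Mmp14 (ENSMUSG00000000957, chromosome 14, 54431612 to 54441265, plus strand) was at 7.26, 7.55 and 7.67 FPKM in KO replicates 1, 2 and 3, and at 15.0, 8.26 and 7.71 FPKM in wildtype replicates 1, 2 and 3. The groups were separate by a small margin, as wildtype replicate 3 was next to the KO libraries. For Mmp14 the log2 difference was -0.45 (SE 0.273, adjusted p-value 0.557 by edgeR). Wildtype replicate 1 decided its size, since the log2 difference was -0.11 without it. Mmp2 (ENSMUSG00000031740, chromosome 8, 92827291 to 92853420, plus strand) was at 8.42, 11.4 and 11.6 FPKM in KO replicates 1, 2 and 3, and at 26.3, 13.5 and 8.95 FPKM in wildtype replicates 1, 2 and 3. Here the groups overlapped, and wildtype replicate 1 again stood above the other libraries. For Mmp2 the log2 difference was -0.68 (SE 0.403, adjusted p-value 0.539 by edgeR) and -0.19 without wildtype replicate 1. Mmp2 relative to Mmp14 was 1.16 to 1.52 in KO libraries and 1.16 to 1.75 in wildtype libraries.

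The fibroblast and stromal markers, cells known to make both enzymes, were also highest in wildtype replicate 1. Their sum was 785 FPKM there, 449 to 586 FPKM in the other wildtype libraries and 389.7 to 463 FPKM in KO. Of the 10 markers, 9 had a negative log2 difference. An unadjusted p-value under 0.05 was found for 2, against 6.07% of all tested genes lower in KO. Without overlap, 4 markers were lower in KO, against 13.7% of all tested genes. What these cells contributed to the Mmp2 and Mmp14 levels was not tested.

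Mmp19 (ENSMUSG00000025355, chromosome 10, 128790910 to 128800824, plus strand), a broad-range MMP of basement membrane proteins, was at 2.23, 3.64 and 4.69 FPKM in KO replicates 1, 2 and 3, and at 3.88, 2.91 and 3.76 FPKM in wildtype replicates 1, 2 and 3. The KO range enclosed the wildtype range. By edgeR the log2 difference was -0.13 (SE 0.264) with an adjusted p-value of 0.909, and it turned positive, to 0.21, without KO replicate 1. Without KO replicates 2 and 3 it was -0.57. On the opposite strand Mmp19 overlaps Tmem198b, at 1.83 to 3.41 FPKM, and the sources used here do not state whether strand was used in counting.

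The TIMPs were examined next. Timp1 (ENSMUSG00000001131, chromosome X, 20870166 to 20874735, plus strand), an inducible secreted inhibitor that binds the proenzyme of MMP9, was at 17.1, 7.86 and 11.2 FPKM in KO replicates 1, 2 and 3, and at 27.6, 18.1 and 15.5 FPKM in wildtype replicates 1, 2 and 3. KO replicate 1 lay within the wildtype range and the other KO libraries were below it. For Timp1 the log2 difference was -0.57 (SE 0.342, adjusted p-value 0.545 by edgeR). It was -1.13 without KO replicate 1 and -0.16 without KO replicates 2 and 3.

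Timp2 (ENSMUSG00000017466, chromosome 11, 118301069 to 118355740, minus strand), which takes part in the activation of pro-MMP2 by MT1-MMP, was at 35.5, 26.1 and 25.8 FPKM in KO replicates 1, 2 and 3, and at 44.2, 26.8 and 31.7 FPKM in wildtype replicates 1, 2 and 3. The groups overlapped, with the highest level in wildtype replicate 1. The log2 difference was -0.12 (SE 0.237, adjusted p-value 0.901 by edgeR), and it turned positive without wildtype replicate 1, to 0.077, and without KO replicates 2 and 3, to 0.14.

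Timp3 (ENSMUSG00000020044, chromosome 10, 86300372 to 86349506, plus strand), which is bound to the matrix and also inhibits ADAMTS proteinases, was at 32.8, 20.9 and 21.4 FPKM in KO replicates 1, 2 and 3, and at 28.0, 35.5 and 31.4 FPKM in wildtype replicates 1, 2 and 3. KO replicates 2 and 3 were below all wildtype libraries, and KO replicate 1 was within their range. The log2 difference was -0.20 (SE 0.244, adjusted p-value 0.810 by edgeR). It was -0.62 without KO replicate 1 and 0.13 without KO replicates 2 and 3. Timp1 and Timp3 overlap Syn1 and Syn3 on the opposite strand, which were low, at 0.291 to 0.545 and 0.0487 to 0.0748 FPKM. In all 3 TIMPs the library labelled KO replicate 1 was above the other KO libraries. The summed level of the chondrocyte markers was also highest in this library, at 1475 FPKM. It was 670 and 679 FPKM in KO replicates 2 and 3 and 663 to 878 FPKM in wildtype. Prg4 alone held 1034 FPKM of the sum in KO replicate 1. Col2a1, at 16.0 FPKM there, was above KO replicates 2 and 3 (12.4 and 12.6 FPKM) but within the wildtype range of 13.9 to 21.3 FPKM. The markers did not all follow. Col11a1 was at 5.67 FPKM in KO replicate 1, against 10.4 and 10.2 FPKM in KO replicates 2 and 3. Col11a2 was at 27.4 FPKM in KO replicate 1, against 31.3 and 31.5 FPKM. Of the 12 tested chondrocyte markers, 7 had a positive and 5 a negative log2 difference. What chondrocytes contributed to the TIMP levels was not tested.

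To describe the balance of enzymes and inhibitors, FPKM values were summed by class within each library. No test was made on these sums. The neutrophil-type enzymes summed to 456, 745 and 737 FPKM in KO replicates 1, 2 and 3, and to 405, 348 and 376 FPKM in wildtype replicates 1, 2 and 3. Every KO library was above every wildtype library, most clearly in KO replicates 2 and 3. For the mesenchymal enzymes the sums were 107.8, 102.1 and 105.3 FPKM in KO replicates 1, 2 and 3, and 193.3, 126.2 and 120.1 FPKM in wildtype replicates 1, 2 and 3. They did not overlap either, in the opposite direction. The ratio of the group means was 1.59 for the neutrophil-type enzymes and 0.722 for the mesenchymal enzymes (log2 ratio -0.47, and -0.22 without wildtype replicate 1). The TIMPs summed to 85.4, 54.8 and 58.3 FPKM in KO replicates 1, 2 and 3, and to 99.9, 80.5 and 78.6 FPKM in wildtype replicates 1, 2 and 3, with KO replicate 1 inside the wildtype range. Their log2 ratio was -0.28, and -0.61 without KO replicate 1.

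Mmp8 and Mmp9 thus accounted for 70.3%, 82.6% and 81.8% of the summed level of the 10 members in KO replicates 1, 2 and 3, and for 58.0%, 62.7% and 65.4% in wildtype replicates 1, 2 and 3. The mesenchymal enzymes held 11.3% to 16.6% in KO libraries and 20.9% to 27.7% in wildtype libraries. Relative to the TIMPs, the summed neutrophil-type enzymes gave a ratio of 5.34 in KO replicate 1, 13.6 in KO replicate 2 and 12.6 in KO replicate 3, against ratios of 4.05, 4.32 and 4.79 in wildtype replicates 1, 2 and 3. KO replicate 1 was close to the wildtype libraries in this ratio. The ratio of mesenchymal enzymes to TIMPs overlapped between the groups, at 1.26 to 1.86 in KO libraries and 1.53 to 1.94 in wildtype libraries.

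**Figure D3:**
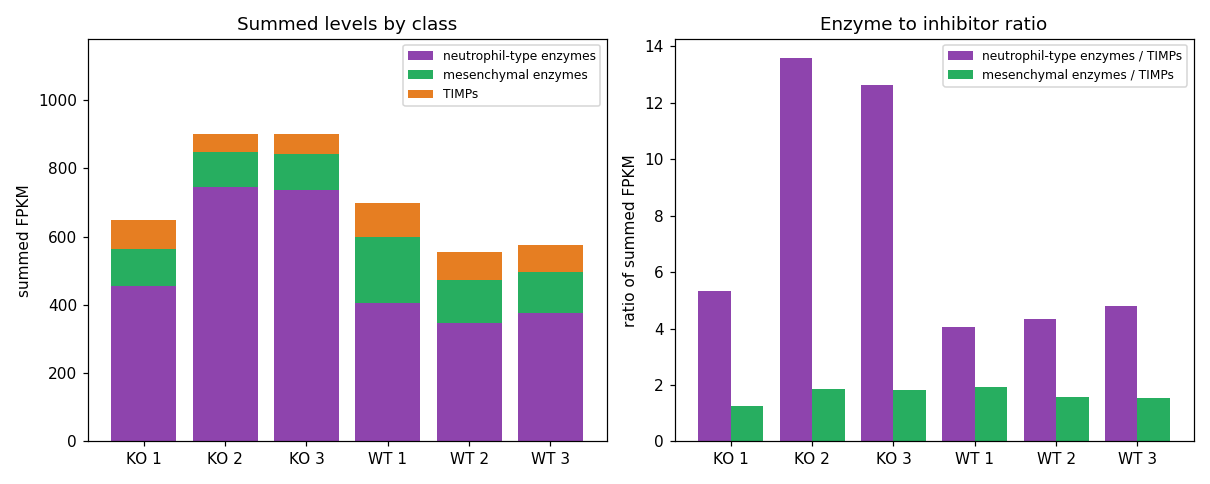
Left, FPKM summed over 2 neutrophil-type enzymes, 5 mesenchymal enzymes and 3 TIMPs, stacked for each library (KO and wildtype, abbreviated WT). Right, the ratio of each enzyme sum to the TIMP sum. The neutrophil-type ratio is 12.6 to 13.6 in KO replicates 2 and 3 and 4.05 to 5.34 in the other 4 libraries, whereas the mesenchymal ratio stays between 1.26 and 1.94.

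The log2 differences of the 10 members were then set side by side. Both neutrophil-type enzymes had a positive value, and all 5 mesenchymal enzymes and all 3 TIMPs a negative one. Mmp8, Mmp9, Mmp13, Mmp3, Mmp2, Mmp14 and Timp1 kept their sign whichever library was left out, KO replicates 2 and 3 together included, whereas Mmp19, Timp2 and Timp3 did not.

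**Figure D4:**
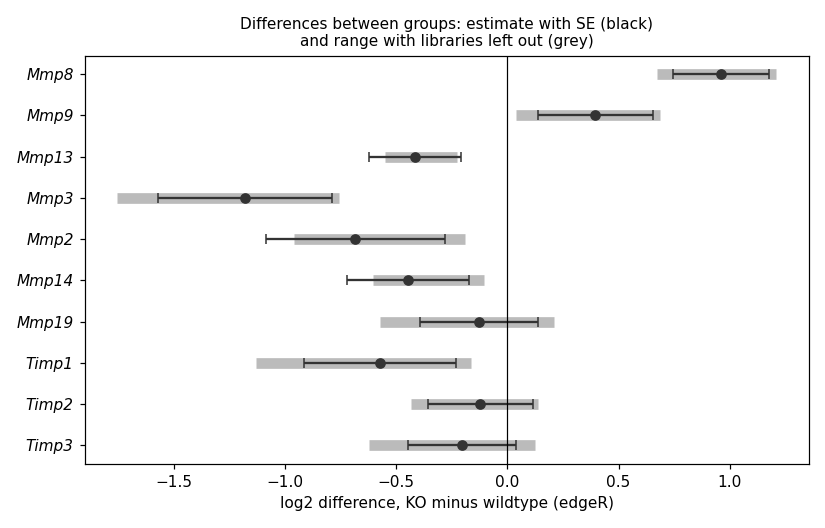
Log2 difference (KO minus wildtype) of each member by edgeR on 5 samples (points) with its SE (black bars), and the range when any library, or the merged KO sample, was left out (grey). Mmp8 lies farthest to the right at 0.96 and Mmp3 farthest to the left at -1.18, and the grey range crosses 0 for Mmp19, Timp2 and Timp3.

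Other genes of the MMP system were examined with lists. Of 17 further MMP and TIMP genes, 15 were in the table and 6 were tested, with 0 called. At an unadjusted p-value under 0.05, Mmp25 (described above) was higher in KO, and Mmp11 (stromelysin 3) and Mmp23 were lower. Over all tested genes the shares were 7.63% and 6.07%. Mmp11 was at 0.789 to 0.915 FPKM in KO and 1.17 to 1.77 FPKM in wildtype (log2 difference -0.76, adjusted p-value 0.318 by edgeR). Mmp23 was at 1.43 to 1.94 FPKM in KO and 1.99 to 3.33 FPKM in wildtype (log2 difference -0.75, adjusted p-value 0.330 by edgeR). The groups were separate for both.

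Genes that activate, bind or clear MMPs made up a list of 25, of which 22 were tested and 0 were called. Positive log2 differences were found for 13 and negative ones for 9, with a median of 0.12, which was -0.08 without KO replicate 1. At an unadjusted p-value under 0.05, 7 were higher and 1 was lower in KO, against 7.63% and 6.07% of all tested genes. With the 6 libraries as labelled 5 were called, all higher (Furin, Plaur, Reck, Elane and Prtn3), against 2.46% of all tested genes. The list of 25 holds 4 neutrophil granule genes (Elane, Prtn3, Ctsg and Lcn2), and 2 of them, Elane and Lcn2, are also on the neutrophil marker list. Plaur, the urokinase receptor, was at 33.0, 38.0 and 37.4 FPKM in KO replicates 1, 2 and 3, and at 19.1, 22.4 and 20.8 FPKM in wildtype replicates 1, 2 and 3. Its log2 difference was 0.78 (SE 0.135) with an adjusted p-value of 0.166 by edgeR, and the 3 KO libraries were close to each other. Elane and Prtn3, which encode neutrophil elastase and proteinase 3, had log2 differences of 0.87 and 1.15 with adjusted p-values of 0.175 and 0.166 by edgeR, and both were separate between the groups.

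Of 18 genes for transcription factors known to act on MMP promoters, 16 were tested and 0 were called, with 11 positive and 5 negative log2 differences and a median of 0.17. Those with the smallest p-values were Cebpb, Fos and Junb. Cebpb was at 26.8 FPKM in the library labelled KO replicate 1, at 9.39 and 4.62 FPKM in KO replicates 2 and 3, and at 3.60 to 6.08 FPKM in wildtype, so 1 library decided its log2 difference of 1.74. Fos likewise was at 35.8 FPKM in KO replicate 1, 16.6 and 14.7 FPKM in KO replicates 2 and 3, and 11.9 to 17.0 FPKM in wildtype. Without KO replicate 1 the log2 differences of Cebpb and Fos were 0.38 and 0.16. Junb, with a log2 difference of 0.41 (adjusted p-value 0.371 by edgeR), was at 25.0 to 30.0 FPKM in KO and 18.3 to 22.4 FPKM in wildtype.

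Among 20 matrix genes whose products MMPs cleave, 19 were tested and 0 were called. Negative log2 differences were found for 14 and positive ones for 5, with a median of -0.44, and of -0.13 without wildtype replicate 1. Vcan, the proteoglycan versican, was at 3.46, 8.58 and 8.33 FPKM in KO replicates 1, 2 and 3 and at 1.68 to 2.45 FPKM in wildtype. Its log2 difference was 1.51 (adjusted p-value 0.166 by edgeR, and 0.0393 with the 6 libraries as labelled), and 0.81 without KO replicates 2 and 3. Eln (elastin) and Lama4 (a laminin chain) had log2 differences of -1.72 and -0.60 with adjusted p-values of 0.234 and 0.344 by edgeR. Wildtype replicate 3, at 1.76 FPKM against 0.646 and 0.542 FPKM in the other wildtype libraries, weighed on Eln, whose log2 difference was -0.99 without it. DESeq2, which called 5.72% of tested genes, gave Eln an adjusted p-value of 0.0206. It gave smaller ones to Plaur (0.000221), Prtn3 (0.000746), Vcan (0.000848), Mmp25 (0.00237) and Elane (0.00269). Mmp11, Mmp23, Cebpb, Fos, Junb and Lama4 were not called by DESeq2.

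Finally, genes with profiles most like those of Mmp9, Mmp13 and Mmp3 were sought among the 13314 other genes averaging 1 FPKM or more. Likeness was the Euclidean distance between log2 CPM values (CPM, counts relative to the TMM-scaled library total) over the 6 libraries, centred on their mean, and a distance of 0 means the same profile. For Mmp9 the 5 nearest genes were Pde1b, Lpar2, Fosl2, Myo5a and Braf, at distances of 0.104 to 0.133, where a flat profile was at 0.869. Fosl2, an AP-1 subunit gene, was at 7.60, 13.2 and 12.8 FPKM in KO replicates 1, 2 and 3, and at 9.38, 6.98 and 7.67 FPKM in wildtype replicates 1, 2 and 3. Fosl2 shared with Mmp9 the high KO replicates 2 and 3 and the higher wildtype replicate 1. This follows from its selection by distance over the same 6 libraries, and a regulatory link was not tested. The genes nearest to Mmp13 were Myo6, Zfp788, 2510009E07Rik, Zcchc24 and Amotl1, at 0.121 to 0.158, where a flat profile was at 0.719. For Mmp3 they were Rsph9, Erdr1, Gm14198, Gm37915 and Gm11837, at larger distances of 0.398 to 0.557, where a flat profile was at 2.01.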

How the data were processed

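Poly(A) RNA of articular cartilage was sequenced as strand-specific paired reads. The authors deposited a table of 34709 genes with an FPKM value and a count per library. The submitters' processing notes name cutadapt 1.9, HISAT2 2.0.4, UMI-tools, StringTie 1.3.4d, DESeq2 and edgeR without roles. FPKM values were scaled by the authors within each library. The deposited counts were whole numbers but behaved as estimated counts, since values of 4 (6596) outnumbered those of 3 (4170) and 5 (2332), so no rounding was needed and a count was not taken as 1 read pair. Gene positions followed GRCm38, and 9 of 10 members had the same positions in GENCODE M21. Groups and replicate numbers came from sample titles. The knocked-out gene is not reported here.

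KO replicates 2 and 3 were merged as their rounded mean count, or their mean FPKM. Counts of 5 samples were tested with edgeR 4.0.16 (R 4.3.3, TMM scaling, quasi-likelihood test) over the genes averaging 0.5 FPKM or more, with Benjamini-Hochberg adjustment over all of them and a threshold of 0.05. The SE is the log2 difference divided by the root of F. The script was tested on simulated data. Alternatives were the 6 libraries as labelled, a replicate block, no filter, DESeq2 1.42.0, median-of-ratios scaling, a minimum of 5 FPKM, limma 3.58.1 on log2(FPKM + 1) and log2(FPKM + 0.1), and libraries left out. For the FPKM sums they were the 6 libraries, CPM in place of FPKM and each library left out.

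Members and lists were chosen with earlier results of these data known. Named by rule were the members, the 3 genes of each related list with the smallest p-values where none was called, markers, and the 5 genes nearest in profile to Mmp3, Mmp9 and Mmp13. Neighbours in the chromosome 9 cluster, overlapping genes, Ctsg, Furin and Reck were named after their values were seen. Promoter sequences are from RefSeq (GRCm38.p6). Protein sequences were not used here. If the counts were read pairs, a count of 0 would allow up to 0.0574 CPM (3 counts) in the shallowest library, counting error only. As they behaved as estimated counts, this bound is only a rough guide.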

Additional observations from a re-analysis of the deposited data

How the results depend on the processing

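Among the members, calls at an adjusted p-value below 0.05 numbered 0 on the 5 samples and 1 (Mmp8) with the 6 libraries as labelled, with DESeq2, and without KO replicate 1. With each library left out in turn it ranged from 0 to 1. Over all tested genes the count was 0 (2106 at an unadjusted p-value under 0.05). It was 570 with the 6 libraries as labelled, 21 without a filter, 880 with DESeq2 and 9 without KO replicates 2 and 3, and ranged from 0 to 352 with each library left out, where 352 was reached without KO replicate 1. The genes of the 4 related lists that are no members gave 0 calls, 7 with the 6 libraries as labelled and 10 with DESeq2, and leaving out each library gave 0 to 3. The cause of the differences between the tools was not tested.

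The log2 difference of Mmp19 changed sign without KO replicate 1 (0.21, with a range of -0.25 to 0.21 over single libraries left out). Without KO replicates 2 and 3 together it was -0.57. That of Timp2 changed sign without wildtype replicate 1 (0.077, range -0.43 to 0.077) and without KO replicates 2 and 3 (0.14). That of Timp3 changed sign without KO replicates 2 and 3 (0.13). The other 7 members kept their direction in every alternative run, though Mmp3 and Mmp19 fell under the minimum of 5 FPKM and have no value there. The log2 ratio of the TIMP sums ranged from -0.61 to -0.16 with each library left out, and those of the enzyme sums kept their direction. The replicate block on the 6 libraries gave 0 calls among members and 0 among all genes (2809 at an unadjusted p-value under 0.05), and it moved Mmp8 to an adjusted p-value of 0.0857. The deviations of same-numbered libraries from their group means had correlations over genes of -0.145, -0.108 and -0.0581. As KO replicates 2 and 3 were nearly alike, their deviations were too, so this check cannot exclude a pairing of the libraries. Low counts limit Mmp3, with 52 to 224 counts per library.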
